A study of Mus musculus with 8 samples.

Results

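The genes described here are a list of 51 interferon-responsive, cytokine and NF-kappaB pathway genes in the hippocampus of SCID mice given FTY720 or saline. They were taken by gene symbol from the probe annotation of the array, with 1 probe set per gene, the one of highest mean signal among those annotated to that gene alone. Of the 51 genes, 46 were measured in this way, out of 12393 genes in all. Isg15 shared its only probe set with a second symbol, and Ifi44, Ifi27, Xaf1 and Nfkb1 had no probe set under their names in the annotation used here, so these 5 were not analysed.

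Interferons bind receptors that signal through Jak kinases to Stat and Irf factors, which switch on antiviral effectors, guanylate-binding GTPases and the class I antigen presentation machinery. Toll-like receptors and the receptors of interleukin-1 and tumour necrosis factor lead instead to NF-kappaB, which drives cytokines, chemokines, adhesion molecules and its own inhibitors. In the brain both programs are carried mainly by microglia, astrocytes and endothelial cells and are low without infection or injury.

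The 8 mice were male SCID animals aged 12 weeks, a strain without mature B and T lymphocytes, and all went through contextual fear conditioning. In the FTY720 group, 4 mice (replicates 1, 4, 5 and 6) received FTY720 (fingolimod, a sphingosine analogue whose phosphorylated form acts on sphingosine-1-phosphate receptors) by mouth in saline at 1 mg/kg on 3 days. In the vehicle group, 4 mice (replicates 13, 14, 15 and 16) received saline by the same route on 3 days. The test of consolidation came 1 hour before the hippocampi were dissected, the last dose 17 hours before, and each mouse gave 1 Affymetrix array, so n = 4 separate animals per group. The labels name no immune challenge in either group.

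None of the 46 genes passed the test for a difference between FTY720 and vehicle mice, which does not show that they were unchanged. Across 12393 genes limma called 0 (0%) at an adjusted p under 0.05, with a lowest adjusted p of 0.536, and the lowest adjusted p among the 46 was 0.717. The median FTY720 minus vehicle difference was 0.0017 on the log2 scale, with 23 genes on each side of 0, and over all genes the median was 0.0072. The largest differences were 0.26 for Usp18 and -0.23 for Gbp3. None of the 46 reached 1.2-fold, which 316 of all genes (2.55%) did, though Usp18 fell just short at 1.199-fold. Sign aside, the median size of the difference was 0.076. It was 0.054 over all genes and 0.060 over genes at or below the median signal. The 95% intervals of the 46 differences, each taken alone, ran from -0.43 at the lowest to 0.48 at the highest bound, that is from 1.35-fold lower to 1.39-fold higher.

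Without adjustment, 6 of the 46 genes had a limma p under 0.05, where 6.64% of all genes did. Higher in FTY720 mice were 2 of the 6, Usp18 and Tap1 (3.86% of all genes on that side), and lower were 4, Gbp3, Il1a, Mx1 and B2m (2.78%). In 3 genes, Gbp3, Il1a and Mx1, all 4 FTY720 values lay below all 4 vehicle values. Groups did not overlap in 4.49% of all genes, and in 1.78% with FTY720 lower. In 46 genes these shares stand for few genes, and nothing particular to the list is read from them.

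**Figure D1:**
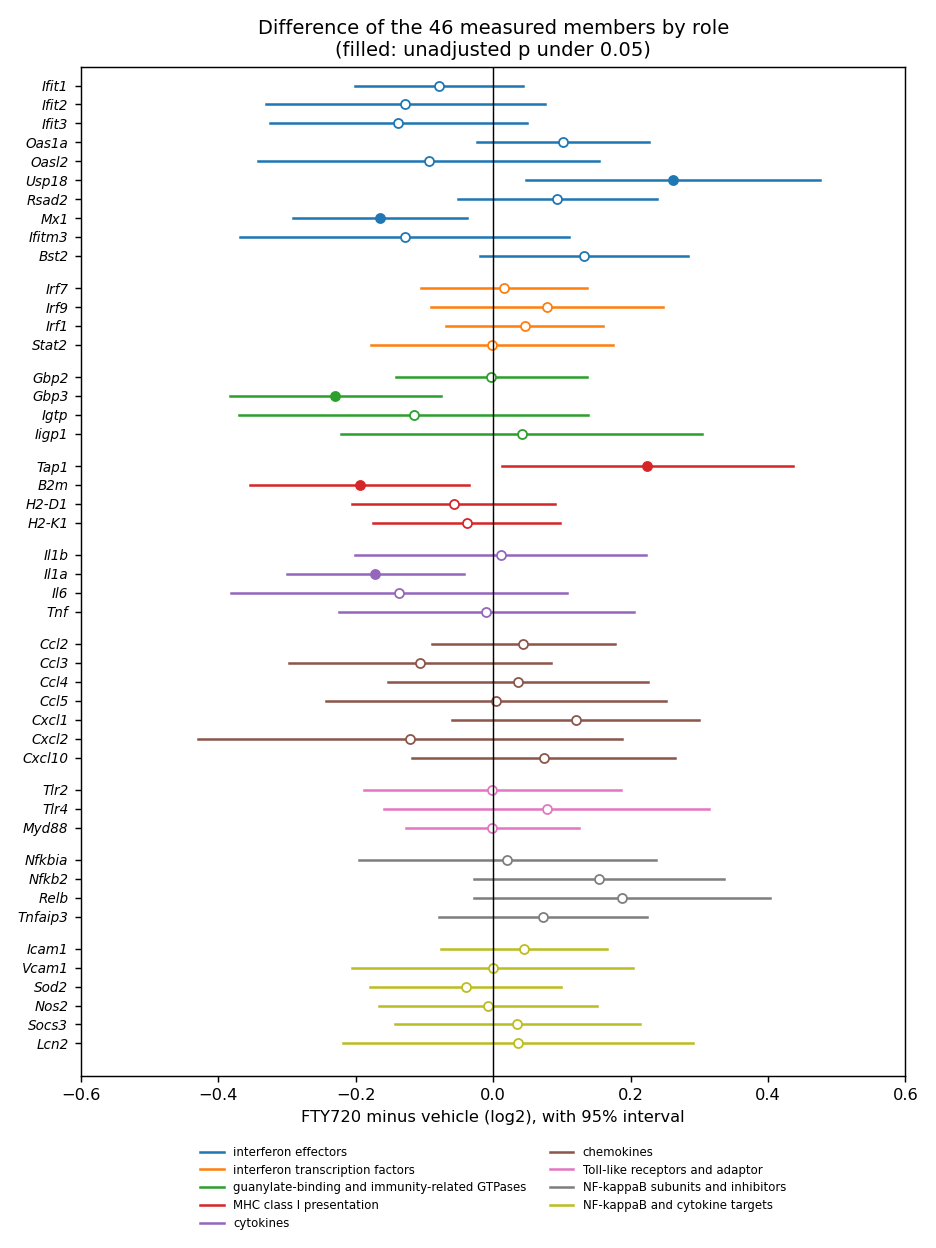
FTY720 minus vehicle difference on the log2 scale for the 46 measured genes, with 95% intervals of the limma fit (n = 4 mice per group), coloured by role. Filled points are the 6 genes with an unadjusted p under 0.05, and all points lie between -0.23 and 0.26.

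Vehicle 15 and 16 stand apart from the other arrays. The median correlation of vehicle 15 with the rest was 0.9944, where the other 7 had 0.9957 to 0.9976. Vehicle 16 had the steepest loss of 5' signal, with a Gapdh 5' minus 3' control difference of -1.46 against -1.18 to -0.80 elsewhere. Without both arrays, 3 of the 46 genes had an unadjusted p under 0.05 (Usp18, Gbp3 and Il1a), where 5.70% of all genes did, and groups did not overlap in 9 of 46, where 14.5% of all genes did. With the Gapdh difference as a covariate 1 gene, Cxcl2, had an unadjusted p under 0.05, where 4.08% of all genes did. The hippocampal marker list was bright, with 9 of its 11 measured genes above the median signal of all genes (7.17). Its mean deviation was lowest in vehicle 15 and 16, at -0.31 and -0.21, where vehicle 13 and 14 had 0.28 and 0.16 and the FTY720 mice -0.16 to 0.22. The source of this marker difference and its part in the values below were not tested.

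Promoter stretches are shown for genes whose values are given below, as examples of 2 elements bound by factors of the interferon and NF-kappaB programs. The interferon-stimulated response element (ISRE) binds Stat and Irf factors and was searched by its core, GAAANNGAAA, on both strands, in the 250 bases before and 50 bases after each start site. The kappaB motif, searched by its usual degenerate form, binds NF-kappaB dimers. Sequences are from RefSeq on GRCm38.p6 and were found for 36 of the 46 genes. The other 10, Usp18 and Mx1 among them, had no sequence to search and are in no motif count. The stretches below run 5′ to 3′ on the strand of the gene, end before the start site, and have the match in capitals, its first base counted from the start site as a negative number. A match in the other orientation reads TTTC, a pair of bases, then TTTC.
B2m, ISRE core from -139, chr2:122147528-122147577, plus strand: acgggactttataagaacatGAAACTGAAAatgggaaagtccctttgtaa
Gbp3, ISRE core from -45, chr3:142559979-142560028, plus strand: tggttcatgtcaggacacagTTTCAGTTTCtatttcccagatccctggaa
Ifit1, ISRE core from -104, chr19:34640765-34640814, plus strand: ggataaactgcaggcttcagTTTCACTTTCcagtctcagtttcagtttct
Ifit3, ISRE core from -156, chr19:34583353-34583402, plus strand: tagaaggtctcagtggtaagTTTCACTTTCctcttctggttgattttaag
Oas1a, ISRE core from -20, chr5:120907526-120907565, minus strand: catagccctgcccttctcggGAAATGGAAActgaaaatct
Igtp, ISRE core from -34, chr11:58199502-58199551, plus strand: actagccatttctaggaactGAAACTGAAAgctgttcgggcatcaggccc
H2-D1, kappaB motif from -171, chr17:35262903-35262952, plus strand: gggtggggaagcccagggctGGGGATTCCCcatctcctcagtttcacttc
Cxcl1, kappaB motif from -71, chr5:90891154-90891203, plus strand: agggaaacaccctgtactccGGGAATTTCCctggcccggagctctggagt
Nfkbia, kappaB motif from -29, chr12:55492648-55492696, minus strand: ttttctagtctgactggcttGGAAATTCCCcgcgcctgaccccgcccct
Nfkb2, kappaB motif from -39, chr19:46304678-46304727, plus strand: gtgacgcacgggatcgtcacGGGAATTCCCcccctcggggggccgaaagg

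The ISRE core was found in 13 of the 36 genes with a promoter window, against 3.99% of all genes with one. Of the 13, 11 were among the 19 interferon-responsive genes with a window. The kappaB motif was found in 17 of the 36, against 9.55% of all genes. It was in 8 of the 19 interferon-responsive genes and in 9 of the 17 cytokine and NF-kappaB genes, so it did not separate them. Genes with an ISRE core did not share a direction, with 4 higher and 9 lower in FTY720 mice and a median difference of -0.0027. Over all tested genes with an ISRE core (380) the median was 0.0040. For the kappaB motif, 7 genes were higher and 10 lower, with the same median of -0.0027, and the median over all 1184 tested genes with that motif was 0.0064. Some matches of the same motif overlap, as the ISRE cores of Gbp3 do. A kappaB match can lie close to an ISRE core without overlap, as in the B2m stretch. A match is a run of letters and no measure of binding.

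Values per mouse are given below in the order FTY720 1, 4, 5 and 6, then vehicle 13, 14, 15 and 16, on the log2 scale. Signals of different probe sets are not an order of RNA abundance. As a rough mark of background, 24 tissue-foreign genes (of testis, pancreas, liver, lens and epidermis) had mean signals from 2.93 to 7.08, with a median of 4.42. That their RNA is absent from these hippocampi was assumed and not tested, so part of this range may be real signal. Of the 46 genes, 10 lay above that range and 11 at or below its median, and 36 had a mean signal at or below the median of all genes. For those 36, a difference near 0 says little about the RNA itself, as the signal may hold much background.

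Among the interferon effectors, 10 of 14 listed genes were measured, 4 higher and 6 lower in FTY720 mice. Usp18, the protease that removes Isg15 and dampens the interferon receptor, had 4.62, 4.86, 4.70 and 4.70, against 4.57, 4.24, 4.36 and 4.66. Vehicle 16 lay within the FTY720 range and the other 3 vehicle mice below it. The means were 4.72 ± 0.10 (SD, n = 4) and 4.46 ± 0.19, a difference of 0.26 (SE 0.10, limma adjusted p = 0.719). Mx1, a dynamin-like GTPase that restricts influenza viruses, had 3.98, 3.98, 4.06 and 4.07, against 4.15, 4.11, 4.17 and 4.31. All 4 FTY720 mice were below every vehicle mouse. The difference was -0.16 (SE 0.06, limma adjusted p = 0.719), and it was -0.11 without vehicle 15 and 16. The mean signal of 4.10 lay below the median of the tissue-foreign genes.

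Oas1a, which makes the 2-5A messenger that activates ribonuclease L, had 7.24, 7.27, 7.19 and 7.30, against 7.26, 7.17, 7.12 and 7.06. The groups overlapped through vehicle 13, with a difference of 0.10 (SE 0.06, limma adjusted p = 0.791). Ifitm3, a membrane protein that blocks virus entry, had 7.43, 7.26, 7.42 and 7.13, against 7.42, 7.74, 7.31 and 7.30. Vehicle 14 was the highest mouse, and the difference of -0.13 (SE 0.11, limma adjusted p = 0.863) was -0.03 without it. The Ifitm3 difference was smaller than the SD between mice in either group, and that of Oas1a was larger than both (0.05 and 0.09).

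The tetratricopeptide proteins that bind viral RNA were all on the lower side and did not pass. Ifit1 was at 4.47 ± 0.05 in FTY720 and 4.54 ± 0.08 in vehicle mice (SD, n = 4 each). For Ifit2 the means were 6.15 ± 0.13 and 6.27 ± 0.16, and for Ifit3 they were 5.54 ± 0.17 and 5.68 ± 0.06. Rsad2 (viperin) stood at 6.53 ± 0.10 and 6.44 ± 0.08, and Bst2 (tetherin), which holds budding virus at the cell surface, at 6.31 ± 0.04 and 6.18 ± 0.13. Oasl2, an Oas-like protein, had 3.57 ± 0.23 and 3.66 ± 0.11, below the median of the tissue-foreign genes. FTY720 and vehicle values overlapped in all 6 of these genes.

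The factors that transmit the interferon signal had differences from -0.0018 to 0.08 and 95% intervals within -0.18 and 0.25. Irf1, an early factor of the gamma interferon response, had 7.33, 7.36, 7.27 and 7.28, against 7.24, 7.18, 7.31 and 7.33, with a difference of 0.05 (SE 0.05, limma adjusted p = 0.902). Irf7, the amplifier of type I interferon production, had means of 5.91 ± 0.07 and 5.89 ± 0.06. Irf9 and Stat2, which carry the type I interferon signal to the nucleus, stood at 6.16 ± 0.12 against 6.08 ± 0.11 and at 5.64 ± 0.16 against 5.64 ± 0.05. FTY720 5 was high for Stat2, at 5.88 where the other 7 mice lay between 5.54 and 5.68.

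Of the GTPases induced by gamma interferon, Gbp3 had the smallest unadjusted limma p of the 46 genes, 0.0077. It had 5.36, 5.20, 5.21 and 5.03, against 5.41, 5.50, 5.43 and 5.39. All FTY720 mice were lower, FTY720 1 only just and FTY720 6 the most. The difference was -0.23 (SE 0.07, limma adjusted p = 0.717), or 1.17-fold, and it was -0.17 without FTY720 6. Its relative Gbp2 stood at 4.58 ± 0.09 and 4.59 ± 0.08, and whether the 2 genes differ was not tested. Igtp and Iigp1, GTPases that attack the vacuoles of intracellular pathogens, had means of 6.40 ± 0.25 against 6.52 ± 0.09 and of 5.84 ± 0.14 against 5.79 ± 0.24. Igtp was lowest in FTY720 4, at 6.03, where the other 7 mice lay between 6.40 and 6.61.

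Class I antigen presentation held the brightest of the interferon-responsive genes. B2m, the light chain of every class I molecule, had 9.46, 9.36, 9.33 and 9.22, against 9.38, 9.54, 9.57 and 9.65. Vehicle 13 lay among the FTY720 mice and the other 3 vehicle mice above all of them. The difference was -0.19 (SE 0.07, limma adjusted p = 0.719), or 1.14-fold, and the second probe set of B2m gave -0.12 (SE 0.05). It was -0.12 without vehicle 15 and 16 and -0.09 with the Gapdh difference as a covariate. Tap1, a subunit of the transporter that carries peptides to class I molecules, had 5.91, 5.99, 5.92 and 5.92, against 5.74, 5.99, 5.64 and 5.48. The FTY720 mice were tightly grouped and vehicle 14 was as high, with a difference of 0.22 (SE 0.09, limma adjusted p = 0.743). That value belongs to 1 of 4 Tap1 probe sets. The others gave -0.07, 0.03 and -0.02, their mean with it was 0.04, and the difference was 0.15 without vehicle 16 and 0.07 without vehicle 15 and 16.

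The class I heavy chains, which pair with B2m, had smaller differences. H2-D1 had 7.33, 7.49, 7.22 and 7.24, against 7.44, 7.39, 7.37 and 7.32, a difference of -0.06 (SE 0.07, limma adjusted p = 0.904). H2-K1 had 7.86, 7.66, 7.73 and 7.62, against 7.73, 7.77, 7.71 and 7.81, a difference of -0.04 (SE 0.06, limma adjusted p = 0.927). FTY720 4 was the highest mouse for H2-D1 and FTY720 1 for H2-K1. Over the 9 probe sets of H2-D1 the differences ran from -0.10 to 0.15, and over the 4 of H2-K1 from -0.07 to 0.07. Class I genes are near-identical, so their signals may be shared, and no H2-K1 probe set was left when the types prone to cross-hybridisation were taken out. The H2-D1 and H2-K1 alleles of the strain are not given in the labels.

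**Figure D2:**
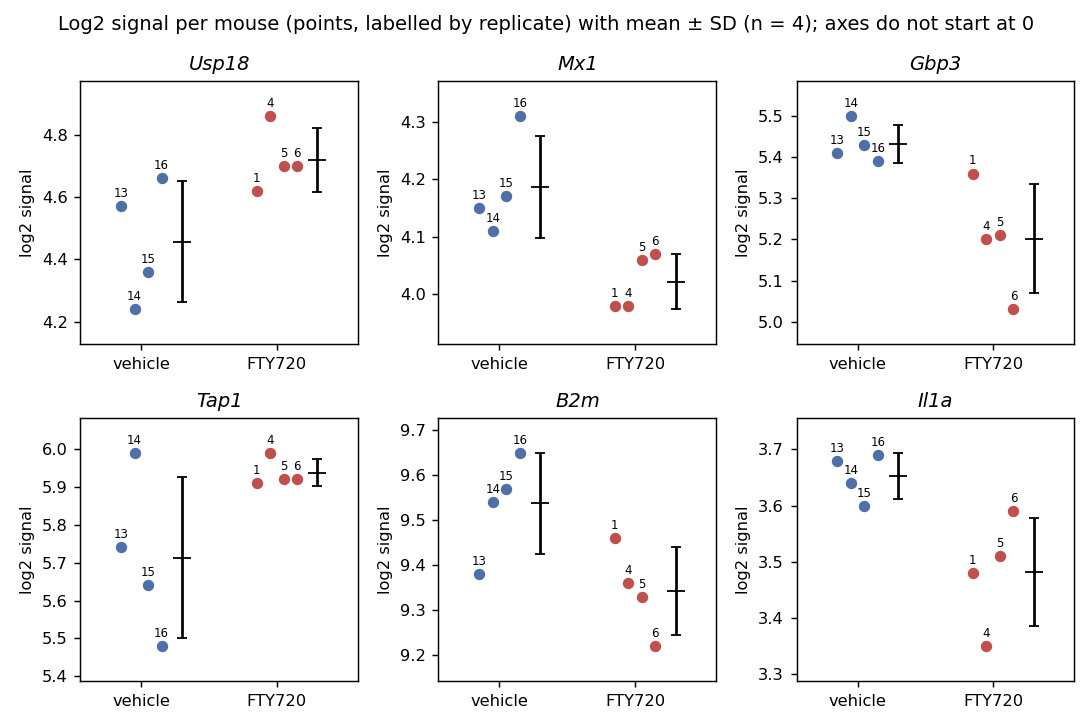
Log2 signal in each mouse for the 6 genes with an unadjusted p under 0.05, with the mean ± SD of each group (n = 4) beside the points and replicate numbers above them. The groups do not overlap for Mx1, Gbp3 and Il1a, and overlap through vehicle 16 for Usp18, vehicle 14 for Tap1 and vehicle 13 for B2m.

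Lists of the cells that could carry these genes are given beside them. Microglia markers, 16 of 18 measured, had mean deviations from the 8-mouse mean of -0.06 to 0.03 in FTY720 and -0.11 to 0.13 in vehicle mice, with 7 genes higher and 9 lower in FTY720 mice. Over all genes 6.64% had an unadjusted limma p under 0.05 (3.86% higher, 2.78% lower), and groups did not overlap in 4.49%. Each marker list holds few genes to set beside these shares. Of the 16 microglia markers, 2 had an unadjusted limma p under 0.05, both lower. The receptor Gpr34 stood at 6.78 ± 0.12 and 7.11 ± 0.10, without overlap, and the protease Ctss at 10.32 ± 0.07 and 10.47 ± 0.07. Astrocyte markers (15 of 15) spanned -0.07 to 0.05 and -0.08 to 0.05, with 5 genes higher and 10 lower. On each side 1 of 15 had an unadjusted limma p under 0.05. These were the water channel Aqp4, at -0.23 (SE 0.07), and the growth factor receptor Fgfr3, at 0.14 (SE 0.06), both without overlap. Endothelial markers (13 genes) spanned -0.12 to 0.07 and -0.10 to 0.15, with 3 genes higher and 10 lower. On each side 1 of the 13 had an unadjusted limma p under 0.05. Blood monocyte, macrophage and neutrophil markers (16 of 18) spanned -0.10 to 0.05 and -0.05 to 0.03, with none above the median signal of all genes. The monocyte receptor Ccr2 stood at 3.66 ± 0.03 and 3.73 ± 0.10. No gene of this list had an unadjusted limma p under 0.05. Lymphocyte markers (16 of 20) spanned -0.05 to 0.07 and -0.05 to 0.05, also with none above that median. Of these, 1 had an unadjusted limma p under 0.05, higher in FTY720 mice and without overlap. Oligodendrocyte markers (12 of 15) had lower values in FTY720 mice, -0.29 to -0.08 against -0.06 to 0.36, with vehicle 16 highest. All 12 were lower, 11 of them at an unadjusted limma p under 0.05 and 7 without overlap. Vehicle 16 was also the highest mouse for B2m, Mx1 and Il1a, whereas vehicle 14 was highest for Gbp3. Choroid plexus markers (10 of 12) varied most, from -1.11 to 0.77 and from -0.80 to 1.25. All 10 were lower in FTY720 mice, none at an unadjusted limma p under 0.05. The part of these lists in the values of B2m, Mx1, Il1a or Gbp3 was not tested. In whole tissue, fewer cells of a type and less RNA per cell cannot be told apart.

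The 4 cytokines were all dim. Il1a, the alarm cytokine released by damaged cells, had 3.48, 3.35, 3.51 and 3.59, against 3.68, 3.64, 3.60 and 3.69. All FTY720 mice were below all vehicle mice, FTY720 6 by 0.01 to the nearest, vehicle 15, as rounded. The difference was -0.17 (SE 0.06, limma adjusted p = 0.719), at a signal below the median of the tissue-foreign genes. Il1b, which microglia secrete after cleavage by the inflammasome, was at 5.43 ± 0.06 and 5.42 ± 0.21 (SD, n = 4 each). Tnf stood at 5.89 ± 0.19 and 5.90 ± 0.12, and Il6 at 2.91 ± 0.17 and 3.05 ± 0.19. Il6 in vehicle 15 was 2.76, where the other 3 vehicle mice had 3.13 to 3.16, and its signal was among the lowest of all genes.

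The 7 chemokines had differences from -0.12 to 0.12 and none had an unadjusted limma p under 0.05. Ccl2, which draws monocytes, stood at 4.96 ± 0.10 in FTY720 and 4.91 ± 0.04 in vehicle mice. Ccl3 and Ccl4, chemokines made by microglia, were at 4.05 ± 0.09 against 4.16 ± 0.17 and at 6.27 ± 0.17 against 6.23 ± 0.08. Ccl5, which draws T cells and monocytes, was at 5.52 ± 0.12 and 5.52 ± 0.23. The neutrophil chemokines Cxcl1 and Cxcl2 stood at 4.45 ± 0.15 against 4.33 ± 0.10 and at 3.37 ± 0.22 against 3.49 ± 0.25. Cxcl2 in FTY720 1 was 3.03, where the other FTY720 mice had 3.46 to 3.49. Cxcl10, an interferon-induced ligand of Cxcr3, was at 4.47 ± 0.15 and 4.40 ± 0.12. Its promoter window holds both an ISRE core and kappaB matches.

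The receptors that sense microbial products and their adaptor had differences within 0.08. Tlr2, which senses lipoproteins, stood at 5.13 ± 0.14 and 5.13 ± 0.12, and Tlr4, the endotoxin receptor, at 4.29 ± 0.22 and 4.21 ± 0.12. Myd88, the adaptor of both, was at 5.26 ± 0.10 and 5.26 ± 0.02. The 95% interval of the Myd88 difference ran from -0.13 to 0.12.

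NF-kappaB subunits and inhibitors were on the higher side in all 4 measured genes, with none at an unadjusted p under 0.05. Nfkbia, the inhibitor that holds NF-kappaB in the cytosol and is itself a quick target of it, had 10.76, 10.69, 10.42 and 10.47, against 10.49, 10.78, 10.47 and 10.51. FTY720 1, FTY720 4 and vehicle 14 were high and the other 5 mice close together. The difference was 0.02 (SE 0.10, limma adjusted p = 0.984), and its sign changed with the mice left out. Nfkb2, the precursor of the p52 subunit, had 8.02, 7.92, 8.04 and 8.09, against 8.01, 7.95, 7.64 and 7.87. The low value of vehicle 15 sets much of the difference of 0.15 (SE 0.08, limma adjusted p = 0.778), which was 0.08 without that mouse. The dimmer probe set of Nfkb2, at 5.21, gave -0.12 (SE 0.06).

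Relb, the partner of p52, stood at 5.87 ± 0.12 and 5.68 ± 0.19, and vehicle 15 was again the lowest mouse, at 5.43. Tnfaip3 (A20), an enzyme that shuts off NF-kappaB signalling, was at 3.98 ± 0.08 and 3.91 ± 0.11. As a group of 4 genes the mean deviation was -0.19 in vehicle 15 and -0.09 in vehicle 16, and between 0.02 and 0.15 in the other 6 mice. The 2 lowest mice of this group are the 2 arrays that stand apart. Both are vehicle mice, and their part in the differences of the group was not tested.

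The targets of NF-kappaB and of cytokine receptors had differences from -0.04 to 0.04. Sod2, the mitochondrial superoxide dismutase, had 10.26, 10.35, 10.48 and 10.30, against 10.29, 10.47, 10.39 and 10.39, a difference of -0.04 (SE 0.06, limma adjusted p = 0.927). Vcam1, an adhesion molecule of endothelial cells and of neural stem cells, had 8.33, 7.97, 8.11 and 7.86, against 8.0, 8.11, 8.08 and 8.07. FTY720 1 was the highest mouse and FTY720 6 the lowest, so the spread was wider with FTY720 (SD 0.20) than with vehicle (SD 0.05), a contrast that was not tested. The difference was -0.00077 (SE 0.09, limma adjusted p = 0.998). Icam1, the ligand of leukocyte integrins, was at 4.23 ± 0.05 and 4.19 ± 0.08, and Nos2, the inducible nitric oxide synthase, at 5.20 ± 0.09 and 5.21 ± 0.12. Socs3, the feedback inhibitor of interleukin-6 signalling, stood at 6.27 ± 0.10 and 6.23 ± 0.14, while its dimmer probe sets gave differences of -0.19 and -0.15. Lcn2, an iron-binding protein of reactive astrocytes, was at 3.20 ± 0.24 and 3.17 ± 0.12, near the lowest signals on the array.

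**Figure D3:**
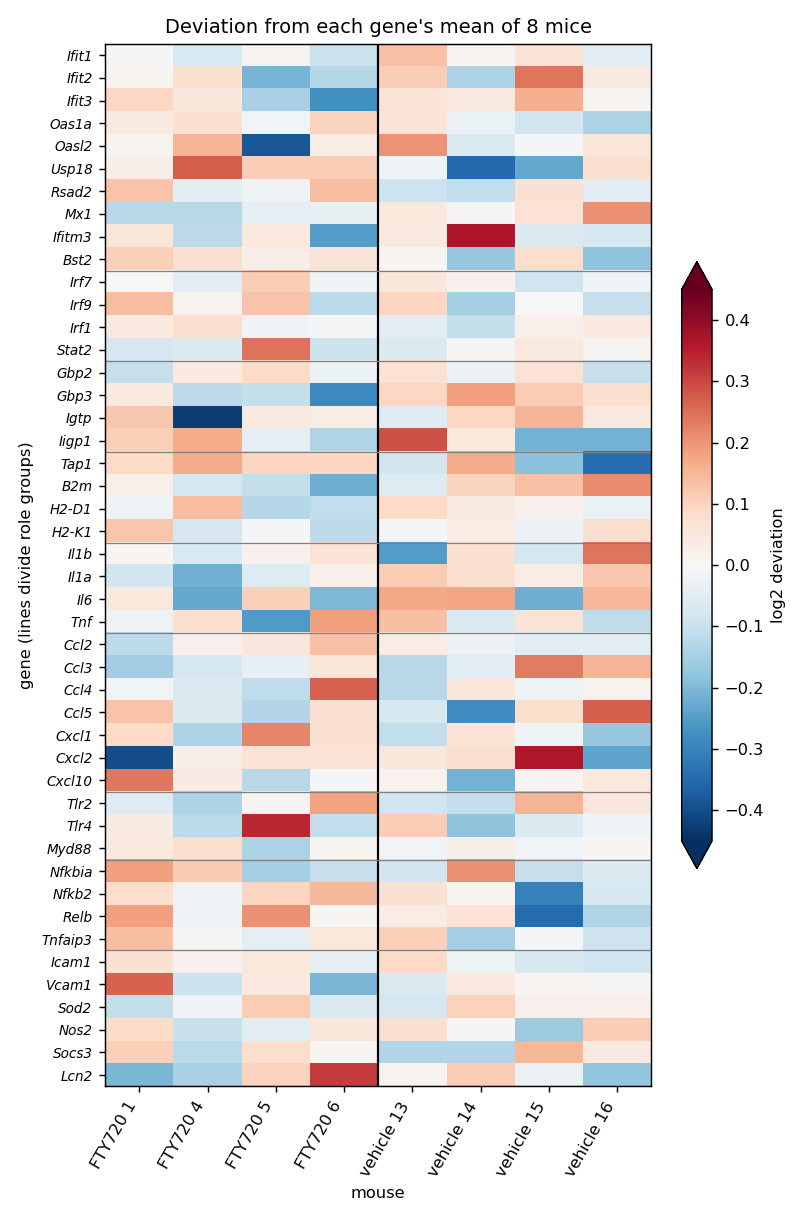
Deviation of each of the 46 genes from its mean over 8 mice (log2, colour), with mice in columns, FTY720 left and vehicle right of the line, and role groups divided by grey lines. Single mice stand out for single genes, such as FTY720 4 low for Igtp and vehicle 15 low for Nfkb2 and Relb.

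How far the genes varied together from mouse to mouse was described by pairwise correlation. After the group means were removed, the median correlation over the 1035 pairs of the 46 genes was 0.020, where it was 0.0050 over all pairs of the 12393 genes and 0.039 over pairs of the 6197 genes at or below the median signal, as 36 of the 46 are. It was 0.09 over the 22 interferon-responsive genes and 0.014 over the 24 cytokine and NF-kappaB genes. The oligodendrocyte markers had 0.76 (12 genes) and the microglia markers 0.41 (16 genes). These values are descriptions over 8 arrays that share 1 normalization. The mean over all 46 genes per mouse stayed between -0.025 and 0.03.

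**Figure D4:**
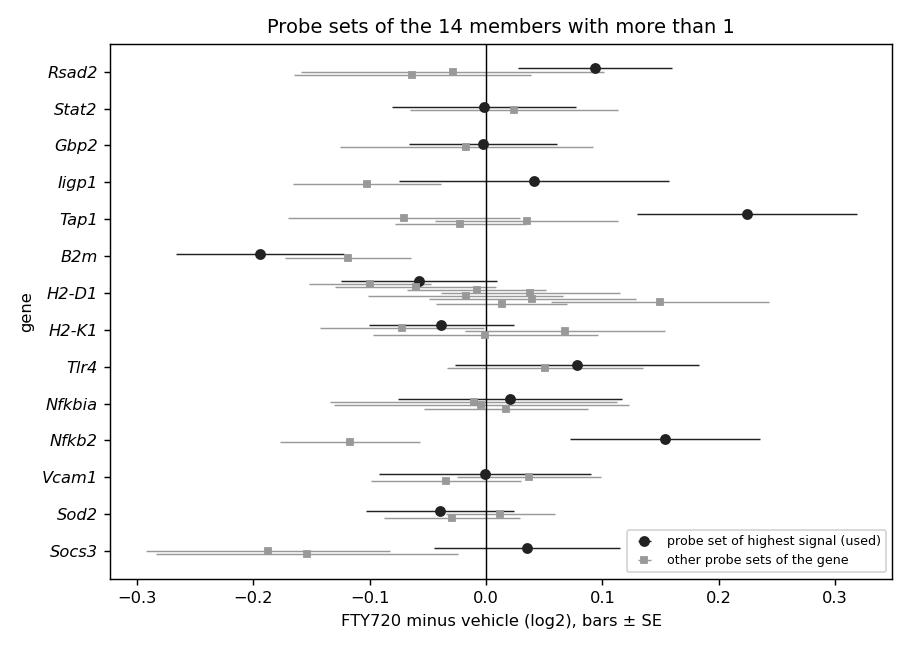
FTY720 minus vehicle difference (log2, ± SE of the limma fit) for every probe set of the 14 genes that have more than 1. Black points are the probe sets of highest signal, used in the text, and grey points the others, which lie on the opposite side of 0 for Nfkb2, Iigp1, Rsad2, Stat2 and Socs3.

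In 14 genes a second look was possible through further probe sets. Of the 31 further probe sets, 13 had the sign of the one used. All of them shared it for B2m, Tlr4 and Gbp2, and none did for Rsad2, Stat2, Iigp1, Nfkb2 and Socs3. Further probe sets were dimmer by rule. Of the 6 genes with an unadjusted p under 0.05, only B2m and Tap1 could be looked at in this way.

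Further genes of these pathways, 188 measured outside the list, are given by their counts. Of the 188, 4 had an unadjusted limma p under 0.05 on the higher side and 8 on the lower, 6.38% together, and none passed adjustment. Over all genes the shares were 3.86% higher, 2.78% lower and 6.64% together, and each list below holds few genes to set beside them. Interferons, their receptors and signalling genes (21 of 22 measured, among them Ifnar1 and Jak1) had none. Other interferon-stimulated genes (41 of 56) had 1 higher and none lower, the immunoproteasome subunit Psmb9 at 5.78 ± 0.04 against 5.56 ± 0.17, a difference of 0.23 (SE 0.08, limma adjusted p = 0.719). Other antigen presentation genes (13 of 21) had 1 on each side. Erap1, which trims peptides for class I, stood at -0.17 (SE 0.07) and the chaperone Calr at 0.11 (SE 0.05). Tap1 and Psmb9 are neighbours in the class II region of the histocompatibility locus. Both were lowest in vehicle 15 and 16, at 5.64 and 5.48 for Tap1 and at 5.33 and 5.54 for Psmb9. The other Tap1 probe sets gave differences of -0.07, 0.03 and -0.02. Tap2 was at -0.01 (SE 0.06) and Psmb8 at 0.09 (SE 0.09). A link between the values of Tap1 and Psmb9 was not tested.

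NF-kappaB and Toll-like receptor signalling genes (32 of 43) had 3 on the lower side and none on the higher, 9.38% where all genes had 6.64%. These were Irak1, the kinase downstream of Myd88, at -0.20 (SE 0.06, limma adjusted p = 0.711), Tlr3, which senses double-stranded RNA, at -0.15 (SE 0.07), and the adaptor Tirap at -0.17 (SE 0.07). Other cytokines, chemokines and receptors (55 of 59) had 1, the interleukin-1 receptor subunit Il1rap, at 7.12 ± 0.08 against 7.40 ± 0.06. Its difference was -0.28 (SE 0.06, limma adjusted p = 0.634). Acute-phase and vascular activation genes (26 of 28) had 2 on the higher and 3 on the lower side. By smallest p these were Hmox1, the heme oxygenase, at -0.16 (SE 0.05), haptoglobin (Hp) at 0.30 (SE 0.10) and Ier3 at -0.18 (SE 0.08).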

How the data were processed

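RNA of 8 hippocampi (100 ng each, 3' IVT kit) was run on 1 Affymetrix array per mouse. The authors deposited processed log2 values, 1 per probe set and array, a unit inferred from their range. The submitters' processing notes list Affymetrix Expression Console as well as MAS5 and RMA, with no role or version. Neither a genome build nor a slide or scan batch is given in the sources used here. Of 22690 probe sets, 20380 had 1 gene symbol, 691 several and 1619 none. Values were used as deposited, with no filter.

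Groups were compared with limma 3.58.1 in R 4.3.3 (lmFit, eBayes, no covariate), with Benjamini-Hochberg adjustment over 12393 genes. The fit was checked on simulated data. SD is between mice, SE is of the moderated fit. The groups share no replicate numbers, so nothing is paired. The number of mice limits the precision.

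The members and lists were chosen with earlier results of these data known. All measured members are named. Full values are given for 15 above the median signal, with an unadjusted p under 0.05 or without overlap, and the other 31 by group means. Of each pathway list, up to 3 genes of smallest unadjusted p under 0.05 are named. Markers and examples beyond this were chosen after their values were seen.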

Additional observations from a re-analysis of the deposited data

Results flagged for a closer look

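In 6 of 92 groups of 4 mice (46 genes, each in FTY720 and vehicle), 1 mouse stood further from the other 3 than Dixon's test allows at its 95% limit. Chance alone gives about 1 in 20 such groups. Stat2 was high in FTY720 5, at 5.88. Igtp was low in FTY720 4, at 6.03. Tap1 was high in FTY720 4, at 5.99, in a group whose other values were 5.91 to 5.92. Il6 was low in vehicle 15, at 2.76, and Cxcl2 was low in FTY720 1, at 3.03, both at signals near the lowest on the array. Nfkbia was high in vehicle 14, at 10.78.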

How the results depend on the processing

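No gene passed adjustment under any of the 17 alternatives. Of 234 alternative values for the 15 genes given in full, 218 kept their sign, and 11 genes kept it throughout. H2-K1 turned to 0.060 when the Gapdh control difference entered as covariate, and Nfkb2 to -0.12 without probe sets prone to cross-hybridisation, which changes the probe set used. Nfkbia ranged from -0.038 to 0.094 with 1 mouse left out and was -0.052 without vehicle 15 and 16. Vcam1 ranged from -0.087 to 0.069 with 1 mouse left out, and was 0.00072 with probe sets averaged, 0.035 with array weights, 0.0095 without vehicle 15 and 16 and 0.13 with the covariate. The causes were not tested. No paired analysis was possible because the groups share no replicate numbers.

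The count of 6 genes at an unadjusted p under 0.05 was 1 among genes above the median signal (10 left, 8.55% of all genes so tested), 3 without vehicle 15 and 16 (5.70%), 1 with the covariate (Cxcl2, 4.08%), and 4 to 7 with 1 mouse left out (5.16% to 7.79%). The covariate is uneven between the groups. With it some differences shrank, as for B2m (-0.19 to -0.088), and others grew, as for Usp18 (0.26 to 0.30). Why the count fell with it was not tested. The count of 3 genes without overlap was 0 above the median signal, 9 without vehicle 15 and 16, and 3 to 6 with 1 mouse left out (5 without FTY720 1, FTY720 4 or vehicle 13, and 6 without vehicle 15). Fewer mice make overlap rarer, and the share over all genes was 14.5% without vehicle 15 and 16 and 6.70% to 8.80% with 1 mouse left out. Above the median signal the share over all genes was 5.68%, and 10 genes are few to set beside it. With 36 of 46 genes at or below the median signal, dim probe sets limit what these arrays show.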
